A study of Homo sapiens with 19 samples.

Results

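Mutually exclusive exons (MXE) are neighbouring exons of which a transcript keeps one or the other, never both. The pairs described here were all events of the 3 MXE tables that the rMATS software made from RNA-seq of the 4 groups, with 1 event kept for each pair of variable exons. The tables hold 18694 MXE rows of 100238 rows over 5 types of splicing event, and 15641 pairs remained once rows with the same pair of exons and other flanking exons were merged. Of these pairs, 2561 had several different rows over the 3 tables together, 6 at most, and 4565 had their chosen row in all 3 tables. The tables cover AKAP8 knockdown in epithelial cells (10382 pairs), AKAP8 knockdown in mesenchymal cells (9050 pairs), and control mesenchymal against control epithelial cells, here called EMT for epithelial-mesenchymal transition (11052 pairs).

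The cells were HMLE/Twist-ER cells, Tert-immortalized human mammary epithelial cells that carry the transcription factor Twist fused to the estrogen receptor, so that tamoxifen turns Twist on. EPI cells were untreated, and MES cells had been grown in 20 nM tamoxifen until they looked mesenchymal. In each state, cells stably expressed from a lentivirus either a non-specific shRNA (control) or an shRNA against AKAP8, a nuclear RNA-binding protein that takes part in splicing. There were 3 EPI control, 3 EPI knockdown, 3 MES control and 2 MES knockdown libraries of stranded polyA RNA, all from this single line. The study's methods call them biological replicates while the labels name no separate cultures, and p-values measure the spread between these libraries. The MXE tables hold between 9982615 and 16686953 junction reads per library, in which a read can count in several rows. The knockdown of MES cells was compared with 2 of the 3 MES controls in the deposited table, and both knockdown comparisons share their controls with EMT (the reads were identical in 8648 of 8648 and 7644 of 7644 common rows). AKAP8 itself, measured by the reads over its cassette exons in 1000000 cassette-exon junction reads, was 11.7 ± 1.09 (SD, n = 3) in EPI control, 5.04 ± 1.14 (n = 3) in EPI knockdown, 11.3 ± 4.26 (n = 3) in MES control and 4.30 ± 0.423 (n = 2) in MES knockdown libraries, without overlap of knockdown and control libraries in either state. All 7 mesenchymal markers with such reads were higher in MES than in EPI controls and all 5 epithelial markers with such reads were lower, while EPCAM, KRT18, CLDN7, CDH2 and the 4 markers of leukocytes, endothelium, smooth muscle and glia had no row in the cassette tables, so that their levels were not measured.

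Mutually exclusive exons often arose by duplication of an exon, so that both members encode versions of the same stretch of protein. Tropomyosins, which coil along actin filaments, carry such pairs inside their chain and at their end. In FGFR2 a pair sets which growth factors the receptor binds, and its first exon, IIIb, is the epithelial form and its second, IIIc, the mesenchymal form. In PKM the pair separates the glycolytic enzymes PKM1 and PKM2, in DNM2 it lies in the stalk of the endocytic GTPase dynamin, and in RAB6A it lies in a GTPase of Golgi transport. Here "first exon" means the member nearer to the 5′ end of the transcript. PSI is the share of the first exon among the junction reads of both exons, in percent, after division by the number of junction positions of each form, and a change in PSI is given in points.

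The sequences of the pairs that carried the main results are shown 5′ to 3′ on the strand of the gene, read from GRCh37. Capitals mark the bases that differ from the other exon of the pair, compared position by position because both exons have the same length. The internal pair of TPM2 (76 and 76 nt, identity 52.6%, separated by an intron of 256 nt) was called in both knockdown comparisons, and that of TPM1 (76 and 76 nt, identity 56.6%) was called in EMT.
TPM2 first exon, chr9:35685061-35685136, minus strand: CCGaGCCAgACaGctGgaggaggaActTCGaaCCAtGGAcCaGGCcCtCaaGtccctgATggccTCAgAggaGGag
TPM2 second exon, chr9:35684729-35684804, minus strand: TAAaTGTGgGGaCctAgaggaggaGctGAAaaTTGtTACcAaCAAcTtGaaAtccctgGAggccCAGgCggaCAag
TPM1 first exon, chr15:63353397-63353472, plus strand: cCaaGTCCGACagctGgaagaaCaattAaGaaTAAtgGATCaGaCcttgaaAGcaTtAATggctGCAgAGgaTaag
TPM1 second exon, chr15:63353912-63353987, plus strand: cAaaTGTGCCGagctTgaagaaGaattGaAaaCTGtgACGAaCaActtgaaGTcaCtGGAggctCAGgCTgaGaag

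The next pairs changed in EMT and are shown for their likeness, which was 69.8% in DNM2, 70.8% in RAB6A and 69.9% in GALNT7, a glycosyltransferase that starts O-glycans. The median identity over all 9854 tested pairs with both exons of at most 300 nt was 42.2%. Most of those differ in length and were aligned with gaps, and over the 150 pairs of the same length the median was 36.4%. The introns between the members in DNM2, RAB6A and GALNT7 were 1180, 66 and 137 nt long.
DNM2 first exon, chr19:10906737-10906875, plus strand: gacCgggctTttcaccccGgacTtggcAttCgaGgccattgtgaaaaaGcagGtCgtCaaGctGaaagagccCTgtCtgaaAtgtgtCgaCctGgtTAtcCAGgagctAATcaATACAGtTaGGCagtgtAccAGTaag
DNM2 second exon, chr19:10908056-10908194, plus strand: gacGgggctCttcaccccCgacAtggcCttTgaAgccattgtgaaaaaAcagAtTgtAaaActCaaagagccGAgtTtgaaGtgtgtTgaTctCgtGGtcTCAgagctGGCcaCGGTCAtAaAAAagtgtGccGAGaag
RAB6A first exon, chr11:73429830-73429935, minus strand: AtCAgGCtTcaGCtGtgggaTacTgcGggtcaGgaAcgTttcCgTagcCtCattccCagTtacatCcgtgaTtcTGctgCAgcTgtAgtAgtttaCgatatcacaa
RAB6A second exon, chr11:73429658-73429763, minus strand: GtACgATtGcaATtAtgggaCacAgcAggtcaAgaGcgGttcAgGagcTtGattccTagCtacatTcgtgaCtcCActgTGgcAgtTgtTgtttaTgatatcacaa
GALNT7 first exon, chr4:174218946-174219128, plus strand: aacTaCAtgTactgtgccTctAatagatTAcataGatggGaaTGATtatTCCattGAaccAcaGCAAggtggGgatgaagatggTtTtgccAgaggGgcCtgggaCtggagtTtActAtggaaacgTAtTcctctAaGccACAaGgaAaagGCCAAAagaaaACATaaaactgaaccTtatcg
GALNT7 second exon, chr4:174219266-174219448, plus strand: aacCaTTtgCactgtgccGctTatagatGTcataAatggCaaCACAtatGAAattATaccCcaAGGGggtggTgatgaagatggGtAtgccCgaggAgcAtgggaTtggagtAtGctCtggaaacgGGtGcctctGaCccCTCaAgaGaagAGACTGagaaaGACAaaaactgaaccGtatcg

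The rMATS reads of a pair are those on the junctions from either exon to both flanking exons, and they do not tell whether a transcript holds both exons. Each pair was therefore solved with the cassette exon tables of the same comparison into 4 connecting junctions, namely those that use the first exon only, those that use the second only, those that join both exons, and those that skip both. The exclusive share is the share of the first 2 kinds among all 4. In EMT, 9348 pairs could be solved with at least 20 connecting reads per library on average, and their median exclusive share was 1.56% (interquartile range 0.48% to 5.77%). Most pairs of the tables were thus not used one at a time in these cells. In 8211 pairs (87.8%) more than 50% of the connecting reads joined both exons, in 6830 pairs (73.1%) the exclusive share was under 5%, in 840 pairs (8.99%) it was at least 50%, and in 548 pairs (5.86%) at least 90%. For 494 of the solved pairs neither the cassette tables nor the annotation held a junction between the exons, so that reads joining both were set to 0, and these made up 446 of the 840 and 429 of the 548 pairs. Over the other 8854 pairs the median was 1.39%, with 394 pairs (4.45%) at 50% or more and 119 (1.34%) at 90% or more. In the knockdown tables the medians were 1.51% over 8745 pairs in EPI and 1.84% over 7781 pairs in MES.

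**Figure D1:**
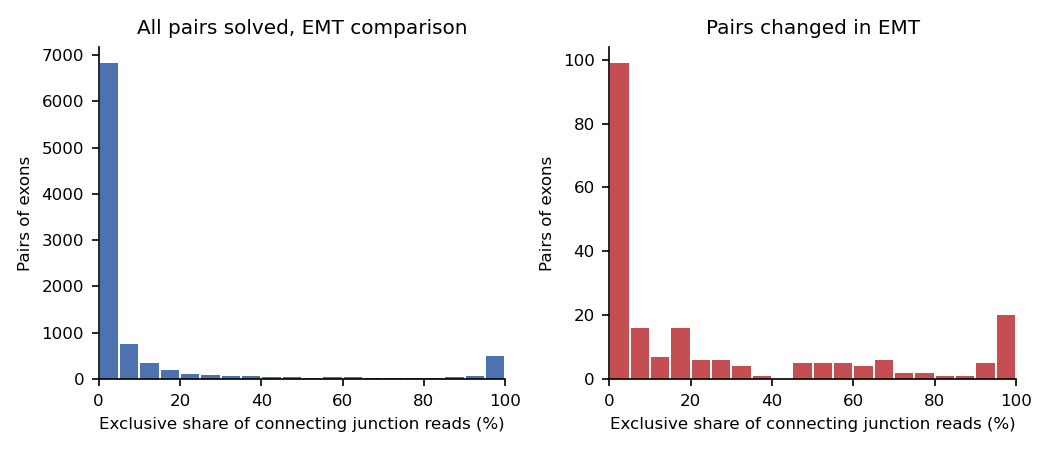
Number of exon pairs (vertical axis) by exclusive share of connecting junction reads in percent (horizontal axis, bins of 5 points), for the 9348 pairs solved in the EMT comparison (left) and the 211 of them that changed (right). Most pairs lie under 5%, with a smaller group near 100%, for most of which in the left plot reads joining both exons were set to 0.

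Per library, the median exclusive share was 1.10% to 1.14% in the EPI controls and 1.31% to 1.52% in the MES controls of the EMT table. These groups did not overlap (two-sided exact permutation test p = 0.1, the smallest that 3 against 3 libraries can give), and the mean share was 11.5% to 11.6% against 11.6% to 11.7%. In the EPI knockdown table the medians were 1.19% to 1.23% in controls and 1.20% to 1.43% after knockdown (exact p = 0.3). In MES the control medians were 1.54% and 1.71% and the knockdown medians 1.59% and 1.72% (exact p = 0.667, where 2 against 2 cannot go below 0.333).

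Some pairs in genes with classical exclusive exons were used one at a time. In the EMT table the exclusive share was 97.9% in TPM2, 97.9% in TPM1, 99.9% in TPM3, 94.7% in FGFR2, 99.8% in DNM2 and, in a pair picked after its values were seen, 99.7% in GALNT7. In MAPK8, MAPK9 and MAPK14, kinases whose exclusive pairs lie in the catalytic domain, and in SLC25A3, the mitochondrial phosphate carrier, the share was 100%, but there, as in RAB6A, OGDH, P4HA2 and NUMB, no junction between the exons was found and reads joining both were set to 0. Reads that skip both exons also count as 0 wherever the cassette tables do not hold that junction. Other pairs of the classical genes were not exclusive, with shares of 0.833% in H2AFY, 0.121% in ACTN1, 0.169% in ITGA3 and 0.0213% in TPM4. These were the tested pairs with most reads in each gene, and they need not be its known exclusive exons. The median over the solved pairs of the classical list was 1.56%, beside 1.54% over all tested pairs. In CD44, a receptor for hyaluronan with a block of variable exons, the pair of 69 and 231 nt had an exclusive share of 0.04%, since its exons were joined to each other in 2332 to 4310 reads per library and used alone in at most 5.

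**Figure D2:**
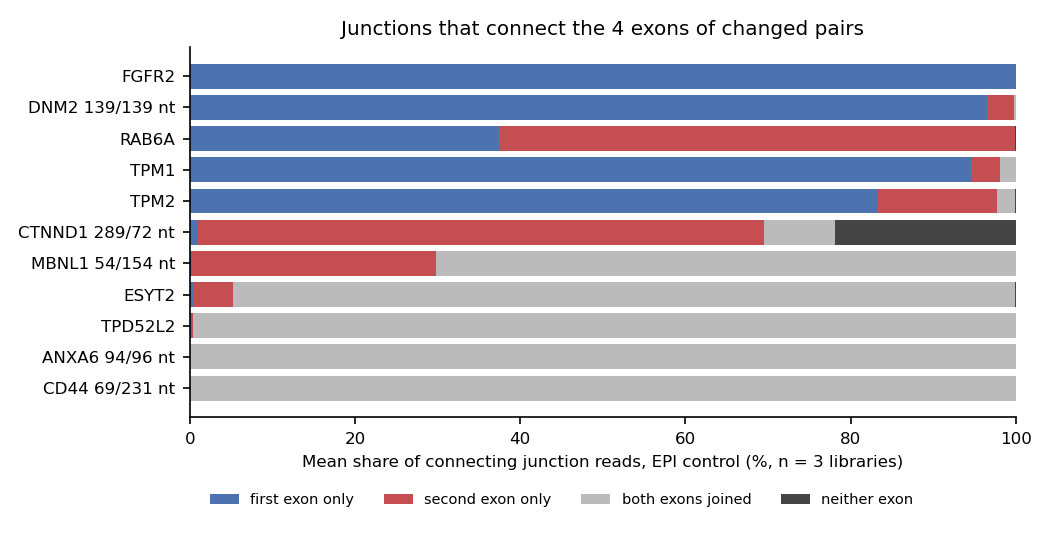
Mean share of connecting junction reads (horizontal axis, percent) that use the first exon only, the second only, both or neither, in the 3 EPI control libraries, for 11 pairs that changed in one of the comparisons (vertical axis). In FGFR2, DNM2, TPM1 and TPM2 nearly all reads use 1 exon, as in RAB6A, where reads joining both exons were set to 0, while in TPD52L2, ANXA6 and CD44 nearly all join both.

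AKAP8 knockdown in EPI cells changed 3 of 9860 tested pairs (0.0304% of pairs tested), in TPM2, TPD52L2 and ESYT2, of which 2 moved toward the first exon (0.0203%) and 1 toward the second (0.0101%). Pairs with fewer than 20 junction reads in the average library were left out (522 pairs), and a pair was called if the adjusted p of the limma-moderated quasi-binomial test was under 0.05 and PSI moved by at least 10 points. By the unadjusted p 154 pairs (1.56%) would pass, and a further 4 had an adjusted p under 0.05 with a smaller change. The median absolute change over all tested pairs was 2.03 points. Among cassette exons, 25 of 47579 rows passed the same test (0.0525%), beside 0.0261% of MXE rows.

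The TPM2 pair moved from the first to the second exon. PSI was 82.5%, 84.8% and 84.2% in the EPI controls and 66.6%, 67.5% and 70.3% after knockdown. All 3 knockdown libraries lay below all 3 controls, a separation that 10.3% of all tested pairs showed in this comparison. The means were 83.8% ± 1.19 and 68.1% ± 1.94 (SD, n = 3 each), a change of -15.7 points (adjusted p = 9.94e-12). The second-only junction had 315 to 538 reads in controls and 623 to 1120 after knockdown, while the junction between the exons had only 50 to 81 reads in any of the 6 libraries, so the shift was between forms that hold 1 exon each. TPM2 encodes beta-tropomyosin, and its change kept an adjusted p between 1.18e-14 and 2.58e-07 under every alternative but limma on the logit of PSI, where it was 0.25.

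In TPD52L2, which encodes a member of the tumor protein D52 family, the pair of 102 and 49 nt had PSI values of 45.9%, 42.5% and 45.1% in controls and 59.3%, 58.9% and 55.0% after knockdown. The groups did not overlap, and the change was 13.2 points (adjusted p = 0.0314). The exons of this pair were not exclusive, with an exclusive share of 0.407% and 932 to 1356 reads per library that joined both. Of 283 reads of the first exon in EPI control 1, for example, 1 lay on the first-only junction, so that nearly all came from the junction with the upstream flanking exon. That junction passes over a cassette exon of 60 nt at chr20:62507169-62507228, whose inclusion fell from 74.7% ± 3.04 to 63.1% ± 4.26 in EPI knockdown (n = 3 each, adjusted p = 0.00761 in the cassette table). The same pair in MES cells had mean PSI values of 47.1% ± 2.05 (n = 3) in control and 55.4% ± 2.39 (n = 2) in knockdown libraries. It was not called in MES. The knockdown effect in MES minus that in EPI was -4.82 points (adjusted p = 0.824, limma-moderated quasi-binomial test of the difference).

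ESYT2, which encodes an extended synaptotagmin that tethers the endoplasmic reticulum to the plasma membrane, had PSI values of 29.2%, 31.6% and 28.4% in EPI controls and 41.6%, 41.9% and 39.8% after knockdown. Every knockdown library lay above every control, and the change was 11.3 points (adjusted p = 0.027). Its exons of 75 and 87 nt were mostly joined, with 400 to 597 such reads per library and an exclusive share of 5.14%. In MES cells the means were 51.2% ± 1.75 (n = 3) and 50.2% ± 3.10 (n = 2). The knockdown effect in MES minus that in EPI was -12.4 points. This difference was not called (adjusted p = 0.252, limma-moderated quasi-binomial test of the difference). The calls of TPD52L2 and ESYT2 were lost with a dispersion trend that was not robust (adjusted p = 0.0709 and 0.0629), with limma on the logit of PSI (0.573 and 0.644), and without EPI control 1, EPI control 2, knockdown 2 or knockdown 3 (0.135 to 0.389 for TPD52L2 and 0.0588 to 0.277 for ESYT2); ESYT2 was also lost without EPI control 3 (0.073). The number of called pairs was 1 without EPI control 1, EPI control 2 or knockdown 3, 8 without EPI control 3, and 69 without knockdown 1.

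The 3 pairs with the smallest p that were not called were in MYL6, TPM1 and SPINT2. In MYL6, a light chain of nonmuscle and smooth muscle myosin, PSI of a pair of 28 and 144 nt was 2.64% ± 0.12 in controls and 4.79% ± 0.56 after knockdown (adjusted p = 0.000763). In TPM1, alpha-tropomyosin, the first exon fell by 7.68 points, from 95.1% ± 0.09 to 87.4% ± 3.32 (adjusted p = 0.00202). In SPINT2, an inhibitor of serine proteases at the epithelial surface, PSI of a pair of 171 and 54 nt fell by 8.51 points from 51.4% ± 2.11 (adjusted p = 0.00385). In each of them the knockdown and control libraries did not overlap, but the change stayed under 10 points. The internal pair of TPM3 had PSI values of 99.8% to 99.9% in controls and 99.3% to 99.6% after knockdown (adjusted p = 0.0939), so that of the 3 tropomyosin pairs built alike TPM2 alone passed both limits.

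In MES cells AKAP8 knockdown changed 1 of 8633 tested pairs (0.0116%), again the TPM2 pair. PSI was 81.3% and 80.7% in the 2 MES controls of the table and 67.5% and 67.8% after knockdown. The groups did not overlap, which 31.8% of tested pairs showed in this comparison of 2 against 2, and the change was -13.4 points (adjusted p = 7.92e-05). The exclusive share of the pair was 98.1%. The third MES control, which stands in the EMT table only, had a PSI of 74.1%, and with it the change was -11.1 points with an adjusted p of 0.597, so the call did not hold. Limma on the logit of PSI gave an adjusted p of 0.934, and the other alternatives gave 4.76e-05 to 0.00329. By the unadjusted p 125 pairs (1.45%) would pass. Among rows, 0.0101% of MXE and 0.0479% of cassette exons were called in MES.

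The pairs next in p in MES were in FN1, AP2S1 and AP2M1, and none was called. FN1 encodes fibronectin, a matrix protein abundant in mesenchymal cells, and PSI of its pair of 107 and 139 nt was 4.72% ± 0.41 in controls and 6.88% ± 0.52 after knockdown (n = 2 each, adjusted p = 0.0216). AP2S1 and AP2M1 encode subunits of the AP-2 adaptor of clathrin coats, with means of 13.0% ± 1.96 against 6.06% ± 0.83 (adjusted p = 0.0441) and of 60.8% ± 0.36 against 71.4% ± 1.05 (adjusted p = 0.0694). The exclusive shares of these 3 pairs were 0.01%, 2.31% and 0.34%. The DNM2 pair had 84.1% ± 1.70 and 75.7% ± 1.86 (adjusted p = 0.337).

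Whether the effect of knockdown differed between EPI and MES cells was tested over 4886 rows present in all 3 tables with all 11 libraries. TPM1 was called at an adjusted p under 0.05 (0.0205% of rows), and 322 rows (6.59%) had an unadjusted p under 0.05. Its knockdown effect was -7.68 points in EPI and 1.33 points in MES, a difference of 9.02 points (adjusted p = 0.00523). Here PSI was 95.1% to 95.2% in the 3 EPI controls, 90.6%, 84.0% and 87.7% in EPI knockdown, 80.3%, 82.3% and 80.2% in MES controls, and 81.2% and 83.4% in MES knockdown libraries. The EPI knockdown libraries thus lay between the EPI and the MES controls. The call was lost without any 1 of the EPI controls (adjusted p = 0.12, 0.087 and 0.0506) or without EPI knockdown 3 (0.0761), and 30 rows were called without MES knockdown 1. For TPM2 the difference of the effects was 4.596 points (adjusted p = 0.803).

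**Figure D3:**
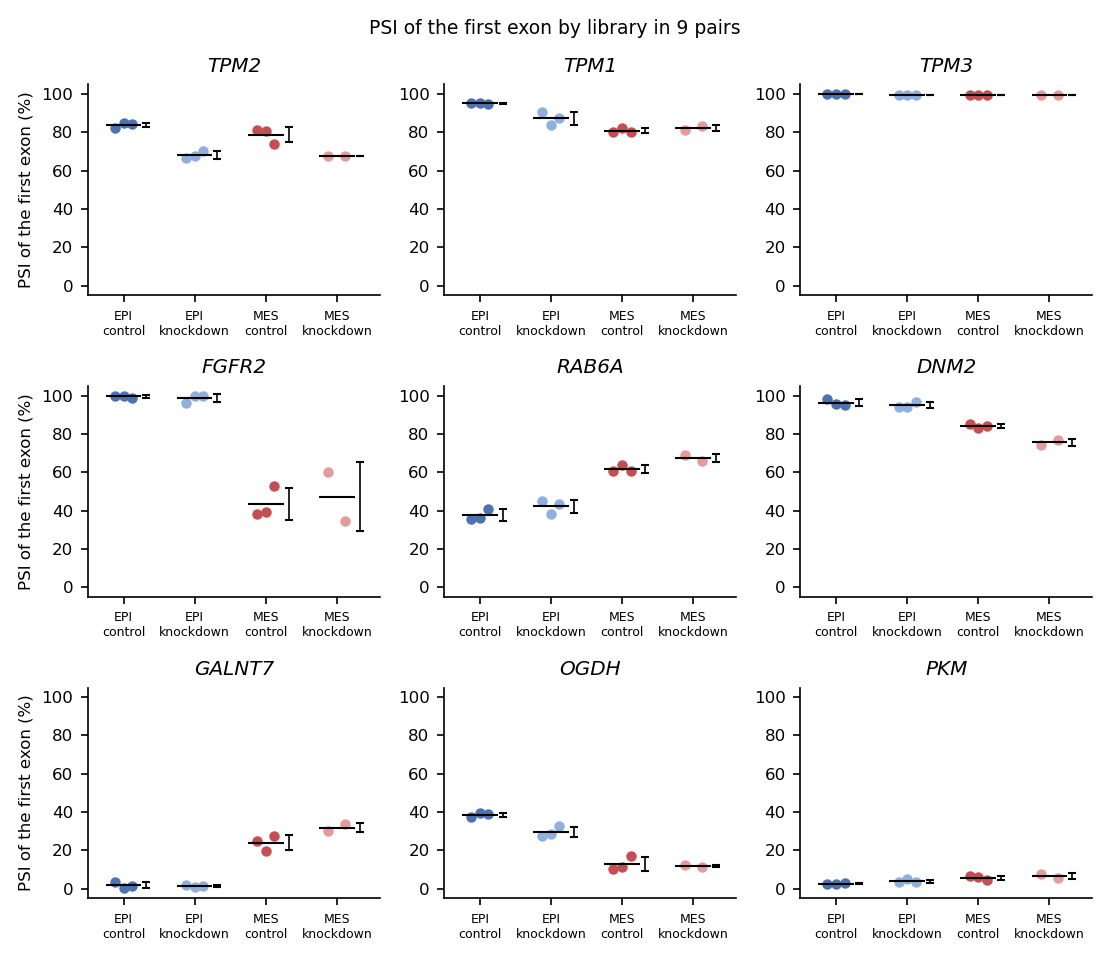
PSI of the first exon in percent (vertical axes, from 0 to 100) in every library of the 4 groups (horizontal axes) for 9 pairs, with points for libraries, lines for group means and bars for the SD. TPM2 is lower in both knockdown groups, FGFR2, DNM2 and TPM1 are lower in MES than in EPI, RAB6A and GALNT7 are higher in MES, and TPM3 and PKM stay near 1 end of the scale.

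The EMT comparison changed 234 of 10500 tested pairs (2.23%) in 194 genes, with 552 pairs below the read minimum. PSI moved toward the first exon in 88 pairs (0.838% of those tested) and toward the second in 146 (1.39%). The median absolute change of called pairs was 15.01 points (at most 56.1), beside 2.47 points over all tested pairs, 20 pairs moved by 30 points or more, and 506 pairs (4.82%) would pass by the unadjusted p. The EPI and MES control libraries did not overlap in 224 of the called pairs and in 17.9% of tested pairs. Of the called pairs, 60 shared an exon with another called pair, so the count is higher than the number of independent switches. The count was 139 without EPI control 1, 143 without MES control 2, 360 without EPI control 3, and 40 with limma on the logit of PSI. Among rows, 2.15% of MXE and 1.35% of cassette exons were called.

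The FGFR2 pair changed most. The IIIb exon had a PSI of 100%, 100% and 98.8% in the EPI controls and 38.5%, 39.1% and 52.9% in the MES controls. No EPI library came near a MES library, and the change was -56.1 points (adjusted p = 1.2e-08), from 99.6% ± 0.70 to 43.5% ± 8.17 (n = 3 each). The depth behind the MES values was low, with 5 to 9 reads of IIIb and 8 to 14 of IIIc per library, beside 81 to 106 reads of IIIb and at most 1 of IIIc in EPI. The knockdown libraries had 96.4%, 100% and 100% in EPI and 60% and 34.5% in MES.

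Of 36 genes with classical exclusive exons, 21 had a tested pair in EMT, and 7 of their 53 pairs were called (13.2%, beside 2.23% of all pairs), 2 toward the first and 5 toward the second exon, in FGFR2, TPM1, DNM2, P4HA2 and FYN. The list was drawn up with earlier results of these data in view, so that this share is a description only. It covers every tested pair of these genes, and some of the called pairs in DNM2 and FYN were not exclusive. TPM1 fell by 14.2 points, from values of 95.1% to 95.2% in EPI to 80.2% to 82.3% in MES controls (adjusted p = 1.31e-22). In DNM2 the values were 98.4%, 95.6% and 94.9% in EPI and 85.3%, 82.9% and 84.1% in MES controls, a fall of 12.2 points (adjusted p = 2.3e-13). All MES libraries lay below all EPI libraries in both genes, and the second exon remained the rarer one.

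P4HA2, a subunit of the collagen prolyl 4-hydroxylase that prepares collagen in the endoplasmic reticulum, moved toward its first exon. Its exons of 60 and 66 nt had a PSI of 60.2%, 56.8% and 63.9% in EPI and 80.2%, 81.4% and 77.3% in MES controls (19.3 points, adjusted p = 1.69e-15). Its paralog P4HA1 has a pair of 71 and 71 nt, picked after its values were seen, with means of 22.3% ± 0.38 in EPI and 33.1% ± 6.87 in MES controls (10.9 points, adjusted p = 0.251). FYN, a kinase of the SRC family, had a called pair of 150 and 165 nt with an exclusive share of 0.65%. Its pair of 165 and 156 nt, of which the exclusive share was 97.4%, had means of 63.2% ± 6.51 and 78.4% ± 7.67 (adjusted p = 0.196) and was not called.

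The TPM2 pair, called after knockdown, was not called in EMT, with 83.8% ± 1.19 in EPI and 78.7% ± 3.97 in MES controls (-5.10 points, adjusted p = 0.487, and 0.00844 to 0.739 under the alternatives). PKM had PSI values of 2.7%, 2.6% and 2.9% for the PKM1 exon in EPI and 6.5%, 6.1% and 4.6% in MES controls. The PKM2 exon thus took over 90% of PKM in all libraries, while the rise of 3.02 points, although below the 10-point limit, had an adjusted p of 3.4e-07. This PKM pair was also picked after its values were seen, and its exons are shown here because both have the same length and are alike in 62.9% of their bases.
PKM first exon, chr15:72495363-72495529, minus strand: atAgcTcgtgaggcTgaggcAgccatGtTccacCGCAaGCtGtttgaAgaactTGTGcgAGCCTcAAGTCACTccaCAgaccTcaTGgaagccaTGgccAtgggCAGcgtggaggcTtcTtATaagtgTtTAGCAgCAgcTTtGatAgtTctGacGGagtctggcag
PKM second exon, chr15:72494795-72494961, minus strand: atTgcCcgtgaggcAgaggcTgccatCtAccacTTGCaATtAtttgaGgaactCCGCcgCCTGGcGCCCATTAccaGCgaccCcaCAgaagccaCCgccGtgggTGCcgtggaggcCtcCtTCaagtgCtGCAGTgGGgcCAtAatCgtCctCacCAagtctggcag

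Of 840 tested pairs with an exclusive share of at least 50%, 51 pairs in 44 genes changed in EMT, beside 234 of all 10500 tested pairs (2.23%). Toward the first exon moved 21 and toward the second 30, beside 88 (0.838%) and 146 (1.39%) of all tested pairs. In 16 of the 51, reads joining both exons had been set to 0. The following were picked from them after their values were seen. RAB6A moved from 35.4%, 36.1% and 41.0% in EPI to 60.9%, 64.0% and 60.4% in MES controls, a rise of 24.3 points (adjusted p = 1.63e-21), so that the more abundant exon changed. GALNT7 rose by 22.3 points from a PSI of 1.79% ± 1.57 to 24.1% ± 3.97 (adjusted p = 3.54e-13), with 1 to 11 first-exon reads per EPI library and 56 to 108 per MES library. OGDH, which encodes the E1 subunit of the oxoglutarate dehydrogenase of mitochondria, fell by 25.6 points from 38.5% ± 1.07 to 12.9% ± 3.51 (91 and 103 nt, adjusted p = 7.81e-20). In these 3 genes the EPI and MES libraries did not overlap.

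ATE1, an arginyltransferase that marks proteins for degradation, fell by 24.6 points from 51.4% ± 5.48 to 26.8% ± 6.11 (129 and 129 nt, adjusted p = 5.02e-06). TCF3 encodes E proteins whose exclusive exons, of 236 and 227 nt, hold alternative basic helix-loop-helix domains, and it fell by 13.9 points from 52.6% ± 3.87 to 38.7% ± 5.35 (adjusted p = 1.79e-05). DLG1, a scaffold protein of cell polarity, rose by 26.1 points from 52.2% ± 2.63 to 78.3% ± 1.03 (97 and 34 nt, adjusted p = 7.54e-10). NUMB, an adaptor of endocytosis that restrains Notch, rose by 12.8 points from 69.4% ± 1.59 to 82.2% ± 0.595 (adjusted p = 0.000626).

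The share of called pairs in EMT was 1.47% (99 of 6737) where the exclusive share was under 5%, 3.08% (39 of 1266) between 5% and 20%, 6.03% (22 of 365) between 20% and 50%, 8.9% (26 of 292) between 50% and 90%, and 4.56% (25 of 548) from 90%. In the highest class it was 8.4% (10 of 119) without the pairs whose reads joining both exons were set to 0. The median number of reads was 356 in the lowest class and between 167 and 332 in the others. An exclusive share of at least 50% with at least 5% of the reads for either form was found in 389 pairs of 341 genes, and 35 of these (9%) were called. Only 54 of the 389 had a known junction between the exons, of which 19 were called (35.2%). After EPI knockdown 1 of 362 pairs with both forms used was called, and 1 of 297 after MES knockdown, in both cases TPM2. Asking for both forms leaves out pairs near 1 end of the scale, which have less room to move by 10 points. Of all 394 EMT pairs with a known junction and an exclusive share of at least 50%, 35 were called.

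**Figure D4:**
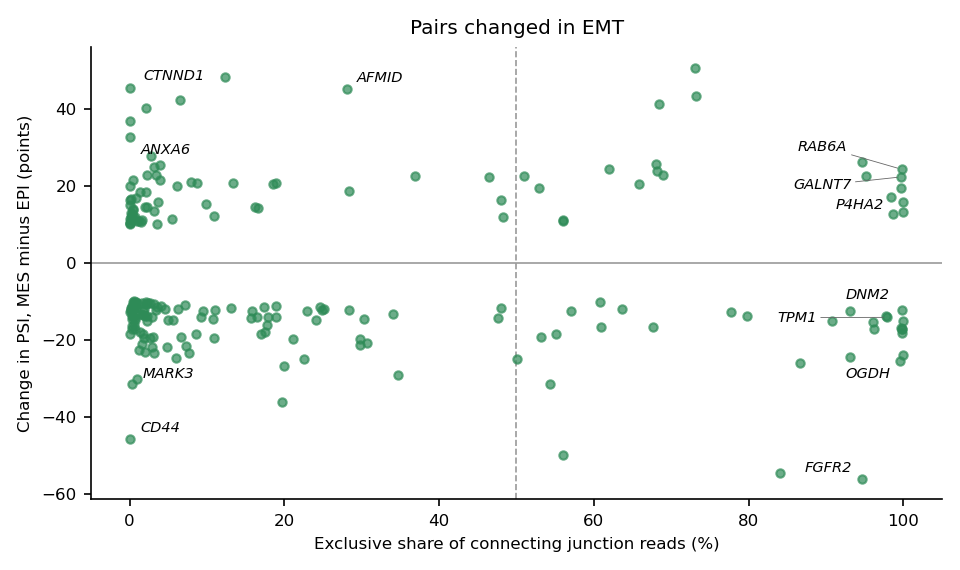
Change in PSI from EPI to MES controls in points (vertical axis) against the exclusive share of connecting junction reads in percent (horizontal axis) for the 211 called pairs that could be solved, with a dashed line at 50%. Large changes occur at both ends, as in CD44 and CTNND1 near 0% and in FGFR2 and RAB6A near 100%.

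Several of the largest changes were in pairs that were not exclusive. In CD44 the pair of 69 and 231 nt had PSI values of 91.1%, 90.4% and 90.4% in EPI and 45.1%, 44.7% and 45.1% in MES controls (-45.7 points, adjusted p = 7.5e-55). The junction from its second exon to the downstream flanking exon passes over the variable exons of CD44. In MES control 1, all 2601 second-exon reads lay there, and the same 2601 reads were those that skipped both exons of the variable pair of 114 and 102 nt. That number was 286 to 368 in the EPI controls and 2481 to 3158 in the MES controls. Of 4 called CD44 pairs, the pair of 132 and 102 nt had overlapping groups, with 41.2%, 52.5% and 9.8% in the MES controls.

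CTNND1 encodes p120-catenin, which holds E-cadherin at the membrane, and its pair of 119 and 180 nt rose by 45.4 points from 6.31% ± 3.40 to 51.7% ± 2.25 (adjusted p = 6.23e-13). Its connecting reads skipped both exons in 479 to 563 reads per EPI control and in 146 to 175 per MES control. In the overlapping pair of 119 and 289 nt, reads that joined both exons rose from 0.4% to 52.0% of the connecting reads. MARK3, a kinase that phosphorylates microtubule-associated proteins, fell by 31.6 points from 93.4% ± 1.45 to 61.8% ± 2.50 in a pair of 104 and 258 nt whose exons were joined in 100% of EPI connecting reads. ANXA6, an annexin of endocytic membranes, rose by 32.6 points from 20.2% ± 7.45 to 52.8% ± 2.03 (adjusted p = 2.16e-09), with an exclusive share of 0.05%. The remaining pairs among the 12 genes with the largest changes had between 30 and 80.8 reads per library in MEG3 (-54.5 points), TCF7L2 (50.7), EXOC7 (48.3), AFMID (45.2), SHROOM2 (40.2), UPF3A (-36.2) and RASSF4 (35.0).

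In the genes of the actin cytoskeleton and cell adhesion, 12 of 151 pairs of 39 tested genes were called in EMT (7.95%, beside 2.23% of all tested pairs), 8 toward the first exon and 4 toward the second, in CD44, CTNND1, EPB41, FNBP1, PALLD and TPM1. The median change over the 151 pairs was -0.03 points, beside -0.20 over all tested pairs. This list and those of the next paragraphs were also drawn up with earlier results of these data in view, so their shares are descriptions only. Called pairs of the same gene can share an exon, as in CTNND1 and FNBP1, and are not independent. PALLD, an actin-bundling protein, rose from 31.0% ± 4.09 to 50.9% ± 4.85 (adjusted p = 0.00428), and EPB41, a protein of the membrane skeleton, fell by 16.7 points (adjusted p = 0.00634). FNBP1, which bends membranes at sites of actin growth, rose by 25.6 points in a pair of 153 and 15 nt that shares its second exon with another called pair.

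In membrane traffic and endocytosis, 13 of 93 pairs of 28 genes were called (14%, beside 2.23%), 7 toward the first and 6 toward the second exon, in 10 genes. SLMAP, a tail-anchored membrane protein, rose from 73.2% ± 3.32 to 94.6% ± 0.91 (adjusted p = 6.01e-11), SEC31A, a coat protein of vesicles that leave the endoplasmic reticulum, fell by 14.3 points (adjusted p = 3.78e-08), and GOLGA2, a Golgi tether, fell by 18.6 points (adjusted p = 9.47e-09). DNM1L, the GTPase of mitochondrial fission, had pairs that moved by 10.7 and by -13.5 points and that share an exon of 33 nt. Besides the exclusive pair of DNM2, the pairs of 87 and 71 nt and of 71 and 52 nt were called, and their exons were joined in nearly all reads.

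Of the genes of RNA-binding and splicing factors, 4 of 111 pairs of 45 genes were called (3.6%, beside 2.23%), 3 of them in MBNL1 and 1 in RBM5. MBNL1, a splicing regulator that is itself spliced, had a pair of 54 and 154 nt that fell by 24.9 points from 44.0% ± 4.25 to 19.1% ± 4.43 (adjusted p = 2.86e-07). All 3 MBNL1 pairs contain the exon of 154 nt, and reads that joined the exons of 54 and 154 nt made up 70.2% of the connecting reads in EPI and 29.6% in MES controls. Among kinases, receptors and signalling enzymes, 9 of 96 pairs of 37 genes were called (9.38%, beside 2.23%), 2 toward the first and 7 toward the second exon. Called pairs lay in AXL, DGKZ, FGFR2, FYN, MARK3 and TCF7L2, of which TCF7L2 is a transcription factor of the Wnt pathway. In the knockdown comparisons TPM2 was the called gene of these 5 lists, out of 47 pairs of the classical list and 141 of the cytoskeleton list in EPI, and out of 48 and 135 in MES.

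Members of a pair had the same length in 150 of 10500 tested pairs (1.43%), in 8 of 234 called pairs (3.42%), in 34 of 840 pairs with an exclusive share of at least 50% (4.05%), and in 6 of the 51 that were called as well (11.8%). The 2 lengths differed by a multiple of 3 in 39.7%, 50%, 47.1% and 64.7% of these sets. Such a difference keeps the reading frame only where 1 coding exon replaces the other. Both exons were coding in 85.7%, 78.6%, 69.5% and 74.5% of the sets. The intron between the exons had a median of 3160.5 nt over tested pairs, 4657.5 nt in exclusive pairs and 1901 nt in called exclusive pairs. Of the 150 pairs of the same length, 25 had an identity above 60%, among them the pairs of RAB6A, GALNT7, DNM2, PKM, MAPK8 and MAPK9. Alike exons were not always exclusive, since CTTN, picked from these after its values were seen and a cortical actin protein built of repeats, had a pair with an identity of 75.7% and an exclusive share of 0.17%.

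The pairs that changed in EMT can be followed over all 4 groups, with 3 libraries in each and 2 in MES knockdown, and none of the following was called in a knockdown comparison. RAB6A had means of 37.5% ± 3.09 in EPI control, 42.1% ± 3.48 in EPI knockdown, 61.8% ± 1.96 in MES control and 67.5% ± 1.98 in MES knockdown libraries. OGDH, in the same order, had 38.5% ± 1.07, 29.6% ± 2.71, 12.9% ± 3.51 and 11.9% ± 0.463. For DLG1 the values were 52.2% ± 2.63, 63.4% ± 5.77, 78.3% ± 1.03 and 87.5% ± 2.80. The EPI and MES levels stood apart in all 3 genes, whichever shRNA was used. GALNT7 had 1.44% ± 0.66 in EPI knockdown and 31.9% ± 2.38 in MES knockdown libraries, and the values of the CD44 pair of 69 and 231 nt were 87.8% ± 2.57 and 41.7% ± 0.347.

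Cassette exons and MXE pairs overlap in the tables and count some of the same reads. In EMT, 326 of 10500 tested pairs (3.10%) had a variable exon that was called as a cassette exon or a called cassette exon between a variable and a flanking exon. The share was 86 of 234 among called pairs (36.8%) and 30 of 51 among called pairs with an exclusive share of at least 50% (58.8%), and in all of these 30 it was the variable exon itself. In EPI knockdown it was 2 of the 3 called pairs, beside 34 of 9860 tested pairs (0.345%). In MES knockdown it was the 1 called pair, beside 11 of 8633 (0.127%). A variable exon of TPM2 was itself called as a cassette exon in both knockdown comparisons.

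AKAP8 binding was measured by eCLIP, in which RNA crosslinked to the protein is precipitated and compared with a size-matched input, and the authors deposited 1 list of merged peaks per state, with 24637 entries in EPI and 30390 in MES. A peak lay within 1000 nt of a variable exon in 483 of 9860 pairs tested in EPI (4.90%, exact binomial 95% interval 4.48% to 5.34%) and in 271 of 8633 pairs tested in MES (3.14%, 2.78% to 3.53%). Intervals cover counting error only, and pairs that share exons are not independent. For single cassette exons the shares were 3.35% and 2.33%, with 1 exon in place of 2 to lie near a peak. Of the pairs called in EMT, 23 of 234 had an EPI peak (9.83%, 6.33% to 14.4%) and 20 a MES peak (8.55%, 5.30% to 12.9%), beside 4.56% and 3.06% of all pairs tested there. Neither list had a peak within 1000 nt of the exons of TPM2 or ESYT2.

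TPD52L2 had 9 entries of the EPI list and 7 of the MES list near its pair, some of which overlap. The EPI peaks shown lie in the introns upstream and downstream of the first exon, with log2 values of IP over input of 3.49 and 4.12, and the third lies upstream of the second exon with a log2 value of 3.69. Capitals mark runs of 3 or more G, since 97.3% of the EPI and 95.9% of the MES peaks hold such a run and their median G contents were 47.0% and 43.8%.
TPD52L2 EPI peak, chr20:62513330-62513407, plus strand: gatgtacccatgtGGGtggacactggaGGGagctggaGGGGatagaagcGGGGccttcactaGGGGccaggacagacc
TPD52L2 EPI peak, chr20:62514419-62514491, plus strand: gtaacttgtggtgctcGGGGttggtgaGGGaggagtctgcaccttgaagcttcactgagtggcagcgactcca
TPD52L2 EPI peak, chr20:62519540-62519640, plus strand: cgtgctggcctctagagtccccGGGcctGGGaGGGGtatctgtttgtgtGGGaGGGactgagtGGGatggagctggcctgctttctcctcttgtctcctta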

How the data were processed

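RNA-seq of 11 libraries and eCLIP of AKAP8 in 2 cell states were used. Per the study's methods, the authors aligned reads to GRCh37 with STAR and counted splicing events with rMATS. The deposited tables hold inclusion and skipping junction reads per library, which are read counts joined by commas in a cell; 30 columns of per-sample PSI and the authors' own p-values and comparisons were not used, nor was their gene table. The columns carry no replicate numbers, and libraries are numbered by their order in the tables. The deposited eCLIP peak lists give a log2 value of IP over size-matched input and a −log10 p-value for each peak, with replicates merged by the authors.

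PSI was computed from junction reads divided by the authors' effective lengths. Groups were compared by a quasi-binomial F test per row with the dispersion moderated by limma (squeezeVar, robust trend on the reads of the rarer form, never below 1), here called the limma-moderated quasi-binomial test, with Benjamini-Hochberg adjustment over all rows of the MXE table with at least 20 reads per library on average. A call needed an adjusted p under 0.05 and a change of 10 points. The row of a pair was the one found in most tables, then the one with most reads. Where neither a cassette row nor the gene annotation joined the exons of a pair, as in RAB6A and OGDH, reads joining both were taken as 0 and each exon's connecting reads as its mean per junction. Reads skipping both exons were taken as 0 where no cassette row held that junction. In the other solved pairs the same was done for the first-only and second-only junctions. Exons of up to 300 nt were compared position by position where their lengths were the same and aligned globally with Biopython 1.88 where they differed. Of 31282 exons, 31268 followed AG and 31270 preceded GT or GC in GRCh37. Peaks were counted within 1000 nt of a variable exon. Named pairs were all called pairs in the knockdowns and the 3 with the smallest p not called. In EMT they were the largest called pair of each of the 12 genes that changed most. The tested pair with most reads of each classical gene and the called pairs of the lists were named too. Others are said to be picked after their values were seen. The pairs, lists, test and dispersion model were chosen with earlier results of these data known. Sequences of other exon pairs are not reported here. The test was tested on simulated counts with the same dispersion in all rows. The changes put in were 0.2 or 0.3 in PSI as a fraction, in rows with PSI near the middle of the scale. Smaller changes, as in the knockdown calls, and changes near the ends of the scale were not simulated. R 4.3.3, limma 3.58.1, Python 3.11.15, pandas 2.3.3 and scipy 1.17.1 were used. Alternatives were the dispersion trend, limma on the logit of PSI, read minimums, thresholds, libraries left out, the third MES control, and the peak window and strength.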

Additional observations from a re-analysis of the deposited data

Results flagged for a closer look

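The TPM1 pair differed between EPI and MES cells in its response to AKAP8 knockdown by a test of the difference itself. The knockdown effect was -7.68 points in EPI and 1.33 points in MES cells, a difference of 9.02 points. The limma-moderated quasi-binomial test of the interaction over 4886 rows, which compares log odds, gave an adjusted p of 0.00523. All 3 EPI knockdown libraries were below all 3 EPI controls, while the 2 MES knockdown libraries, with 81.2% and 83.4%, overlapped the MES controls, with 80.2% to 82.3%. Across libraries left out the difference was 7.29 to 10.6 points, and it was not called without any 1 of the EPI controls (adjusted p = 0.12, 0.087 and 0.0506) or without EPI knockdown 3 (0.0761).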

How the results depend on the processing

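None of the 49 called changes of named pairs reversed under the alternatives run. Of 60 that were not called, 20 changed sign, 13 of them in a fit with a test. With a library left out, the change in EPI knockdown ranged from -0.281 to 0.673 points in MAPK8, -1.41 to 0.407 in FGFR2, -2.19 to 0.454 in MEF2A, -3.06 to 0.788 in ITGA3, -0.00109 to 0.0464 in ITGA6, -1.90 to 1.67 in P4HA2, -0.666 to 0.685 in MAPK9 and -1.08 to 5.31 in FYN. In EMT it ranged from -0.0511 to 1.73 in P4HA1 (66 and 69 nt), -0.0445 to 0.0444 in SLC25A3, -0.585 to 0.658 in PKM (92 and 132 nt) and -0.102 to 0.552 in MAPK9. The third MES control moved ITGA6 in MES knockdown to -0.039 points, and TPM1 there ranged from -0.142 to 2.06 with a library left out. Of all values beside the counts and medians below, 1205 counted as unchanged, 21 changed sign in a fit with a test, 72 no longer passed and 3 passed newly. Without a test, a value counted as unchanged if it moved by at most the larger group SD of its pair, even where its sign changed. Limma on the logit of PSI called 0 pairs in EPI knockdown (174 at an unadjusted p under 0.05 and a 10-point change), 0 in MES knockdown (203) and 40 in EMT (532, with 32 shared with the 234). The non-robust trend left 1 pair in EPI knockdown. A change of 20 points left 0, 0 and 68 pairs. The third MES control left 0 in MES knockdown (109 unadjusted). With a library left out, the counts ranged from 1 to 69 in EPI knockdown (69 without knockdown 1, 8 without control 3, and 1 without control 1, control 2 or knockdown 3), from 139 to 360 in EMT (139 without EPI control 1, 143 without MES control 2, 360 without EPI control 3), and from 0 to 30 for the difference of the effects (30 without MES knockdown 1, 2 without EPI knockdown 1). In MES knockdown a library left out gave values without a test. The cause of these shifts was not tested. With at least 50 connecting reads the median exclusive share was 1.20% in EPI knockdown, 1.51% in MES knockdown and 1.26% in EMT. Pairs near a peak were 2.18% in EPI and 1.42% in MES within 300 nt, 4.07% and 1.83% at a log2 value of at least 3, and 4.25% and 2.43% at the stricter limits of the study, an alternative added after seeing the data. No paired analysis was possible because the columns carry no replicate numbers. Rare forms and weakly expressed genes, such as FGFR2 in MES cells, rest on few reads, and small changes in them were not detectable at this depth.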
